A study of Mus musculus with 16 samples.

Results

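The gasdermins are a family of pore-forming proteins, and 5 of their genes were examined here: the 4 clustered genes Gsdmc, Gsdmc2, Gsdmc3 and Gsdmc4, and Gsdmd. They were taken by gene symbol from the 56268 genes of a mouse RNA sequencing series. Of the 5, 4 passed the filter on low values, as did 13255 genes in all, and Gsdmc did not. Colonic epithelial cells were sequenced in 16 libraries, 4 for each of 4 groups. Control libraries came from mice that carry Villin-Cre, a transgene in which the villin promoter drives Cre recombinase in gut epithelium. Conditional knockout libraries (cKO) came from mice labelled Rictor Flox; Villin-Cre, in which the same Cre is meant to remove Rictor, the defining subunit of the kinase complex mTORC2. Mice of both genotypes were left on normal water or given 3% DSS (dextran sulfate sodium) in the drinking water, which injures the colonic epithelium and induces colitis. All 4 groups therefore carry Villin-Cre. The study set out to examine mTORC2 in the regulation of colitis. The labels give no strain, age, sex or length of DSS treatment, and do not say that the 4 libraries of a group came from separate animals, so p-values measure the spread between these libraries only.

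A gasdermin has an amino-terminal domain that inserts into membranes and a carboxy-terminal domain that holds it back. When a protease cuts the linker between them, the freed amino-terminal parts assemble into pores, through which ions and small proteins such as interleukin-1 beta and interleukin-18 pass and which can lead to the lytic death called pyroptosis. Gsdmd is cut by inflammatory caspases downstream of inflammasomes, and caspase-8 can cut it too. Gsdmc proteins are abundant in the mouse gut epithelium, where their transcripts are known to rise with the type 2 cytokines interleukin-4 and interleukin-13, and human GSDMC can be cut by caspase-8.

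All 5 genes lie on chromosome 15 of mm10. Gsdmc (63775968 to 63808759), Gsdmc2 (63824346 to 63845177), Gsdmc3 (63857724 to 63878558) and Gsdmc4 (63891264 to 63912297) follow each other on the minus strand. Gsdmd lies apart from them on the plus strand, from 75862327 to 75867408. Pseudogenes on the plus strand are interleaved with the cluster: Gsdmcl1 lies between Gsdmc2 and Gsdmc3, Gsdmcl2 between Gsdmc3 and Gsdmc4, and Gsdmcl-ps beyond Gsdmc4.

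The Gsdmc genes are close copies, and this bears on every value below. In GENCODE M21 (GRCm38), the coding sequences of Gsdmc2 and Gsdmc3 were 97.1% identical, with a longest run of 317 identical bases. Gsdmc4 was 93.5% identical to each of them, Gsdmc was 86.1 to 86.4% identical to the other 3, and Gsdmd shared 46.3 to 47.4% of aligned bases with the cluster. Windows of 60 coding bases show both ends of that range. The most different window (coding bases 809 to 868 of Gsdmc4) spans an exon junction on the minus strand, within chr15:63893831-63894684 for Gsdmc4, and the capitals mark bases that differ from Gsdmc4.
Gsdmc4: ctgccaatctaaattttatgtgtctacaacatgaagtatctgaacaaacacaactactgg
Gsdmc2: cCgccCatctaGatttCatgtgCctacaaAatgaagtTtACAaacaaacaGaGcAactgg
Gsdmc3: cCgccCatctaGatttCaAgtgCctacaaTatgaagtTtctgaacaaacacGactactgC
Gsdmc: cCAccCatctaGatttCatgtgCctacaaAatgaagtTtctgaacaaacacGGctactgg

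The least different window (coding bases 138 to 197 of Gsdmc4) lies within a single exon, at chr15:63902734-63902793 for Gsdmc4. There Gsdmc2, Gsdmc3 and Gsdmc4 read the same 60 bases, and Gsdmc differs at the capitals.
Gsdmc2, Gsdmc3 and Gsdmc4: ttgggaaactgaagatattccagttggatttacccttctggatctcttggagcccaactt
Gsdmc: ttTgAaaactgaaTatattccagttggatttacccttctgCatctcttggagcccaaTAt

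A read that falls in such a stretch cannot be assigned to 1 gene, and how the authors' counting treated it is not given in the sources used here. Of all 100-base windows of each gene's transcript, 71.4% of Gsdmc2, 69.5% of Gsdmc3, 79.8% of Gsdmc4, 92.7% of Gsdmc and 100% of Gsdmd occurred in no other gene's transcripts. With 150-base windows the shares were 83.4% for Gsdmc2, 80.7% for Gsdmc3 and 91.2% for Gsdmc4, and with 50-base windows they were 51.5, 53.1 and 61.0%. Levels of Gsdmc2, Gsdmc3 and Gsdmc4 taken singly are therefore uncertain, since reads could be split or dropped between them, and their sum is given beside them. For Gsdmd no such sharing was found.

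Among the 5 genes, RefSeq (GRCm38.p6) matched a promoter entry to Gsdmc3. Its 250 bases before the start are printed for the promoter of a gene that moved with its neighbours, on the minus strand at chr15:63878559-63878808, with the match to TATANA in capitals, 29 bases before the start.
Gsdmc3 promoter: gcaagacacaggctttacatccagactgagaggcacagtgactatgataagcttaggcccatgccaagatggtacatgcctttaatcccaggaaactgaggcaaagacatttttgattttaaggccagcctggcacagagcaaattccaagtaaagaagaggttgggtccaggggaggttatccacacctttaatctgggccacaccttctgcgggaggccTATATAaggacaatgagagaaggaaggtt

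The TATA-like letters TATANA, searched on both strands, stand in 22.6% of 32851 such promoters. No match was found in the Gsdmc3 window for the STAT pattern TTCNNNGAA (in 7.02% of all promoters), the STAT6 pattern TTCNNNNGAA (5.85%), the interferon response core GAAANNGAAA (2.98%), the CDX pattern TTTATNG (9.81%), the HNF4 letters CAAAGTCCA (0.384%), the GATA letters AGATAA (9.99%) or the NF-kB pattern GGGANNNTCC (3.86%). These letters describe this window only, and other forms of the motifs were not searched.

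Levels are given in FPKM, reads scaled to gene length and library size, so that genes can be set side by side. Libraries held 13911823 to 16414914 reads recovered from these values, with 19969 to 22738 genes above 0. Epithelial markers (Epcam, Cdh1, Vil1, Krt8, Krt18, Krt20) summed to 4592 to 6236 FPKM, and 6 fibroblast and endothelial markers to 2.95 to 13.1 FPKM. Rictor lay at 2.17 to 3.14 FPKM in control and 2.22 to 2.75 FPKM in cKO libraries on water, and at 2.82 to 4.16 and 1.92 to 2.96 FPKM after DSS. These ranges overlap, and since the deposited value sums over the whole gene while the labels do not name the deleted part, it checks the genotype labels only weakly. Libraries cKO DSS 3 and 4 stood apart from the others on the second principal component (33.9 and 32.2, the others from -21.2 to 17.1). Sex-linked RNA differed between water and DSS libraries: Xist had 10022 to 25600 reads in the 8 water libraries, 5275 in control DSS 2 and 0 to 7 in the other 7 DSS libraries, while 4 Y-linked genes had 0 to 1856 reads on water and 2681 to 4533 after DSS. Control 1, 2 and 4, cKO 1 and 2 and control DSS 2 each held both kinds of RNA, with 635 to 1856 Y-linked reads in the 5 water libraries, and the labels do not say whether a library pools animals. A difference between water and DSS libraries therefore cannot be told apart from a difference in the sex makeup of the libraries except as far as a fit with the Y-linked level reaches. Mitochondrial genes held 7.66 to 15.1% of reads in the 8 water libraries and 4.74 to 7.34% in the 8 DSS libraries, with no overlap, and this shift goes with every DSS difference below.

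Gsdmc4 was the most abundant gasdermin. Its 4 control libraries were at 1251, 928, 818 and 1399 FPKM and its 4 cKO libraries at 790, 725, 776 and 617 FPKM on water. After DSS it was at 1559, 1640, 1742 and 1515 FPKM in control and 1494, 2109, 1573 and 1445 FPKM in cKO libraries. All 8 DSS libraries lay above all 8 water libraries, and on water every cKO library lay below every control library. It ranked between the 15th and the 36th most abundant of the protein-coding genes in every library.

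Gsdmc2 followed the same order of groups at a lower level. On water it measured 661, 531, 489 and 872 FPKM in control and 419, 364, 428 and 322 FPKM in cKO libraries. After DSS the values were 830, 1023, 948 and 882 FPKM in control and 879, 1202, 898 and 765 FPKM in cKO libraries. Control 4 on water (872) reached into the range of both DSS groups, and the cKO water libraries lay below all others.

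Gsdmc3 was the lowest of the 3 abundant copies. On water it stood at 171, 134, 110 and 241 FPKM in control and 106, 93.7, 119 and 89.5 FPKM in cKO libraries, and these 2 groups overlapped. After DSS it stood at 239, 218, 202 and 247 FPKM in control and 220, 274, 207 and 188 FPKM in cKO libraries. Control 4 again lay apart from the other 3 control libraries and within the DSS range.

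Gsdmd, the gasdermin of the inflammasome pathway, kept a narrower range. Control libraries on water were at 62.6, 61.6, 63.1 and 71.2 FPKM and cKO libraries at 49.3, 57.2, 59.5 and 51.7 FPKM, with no overlap. After DSS, control libraries were at 57.9, 59.2, 61.9 and 80.8 FPKM and cKO libraries at 87.2, 51.9, 84.0 and 79.4 FPKM. In each DSS group a single library stood away from its 3 neighbours, control DSS 4 above them and cKO DSS 2 below them. cKO DSS 2, the lowest DSS library for Gsdmd, was the highest of all libraries for Gsdmc2, Gsdmc3 and Gsdmc4.

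**Figure D1:**
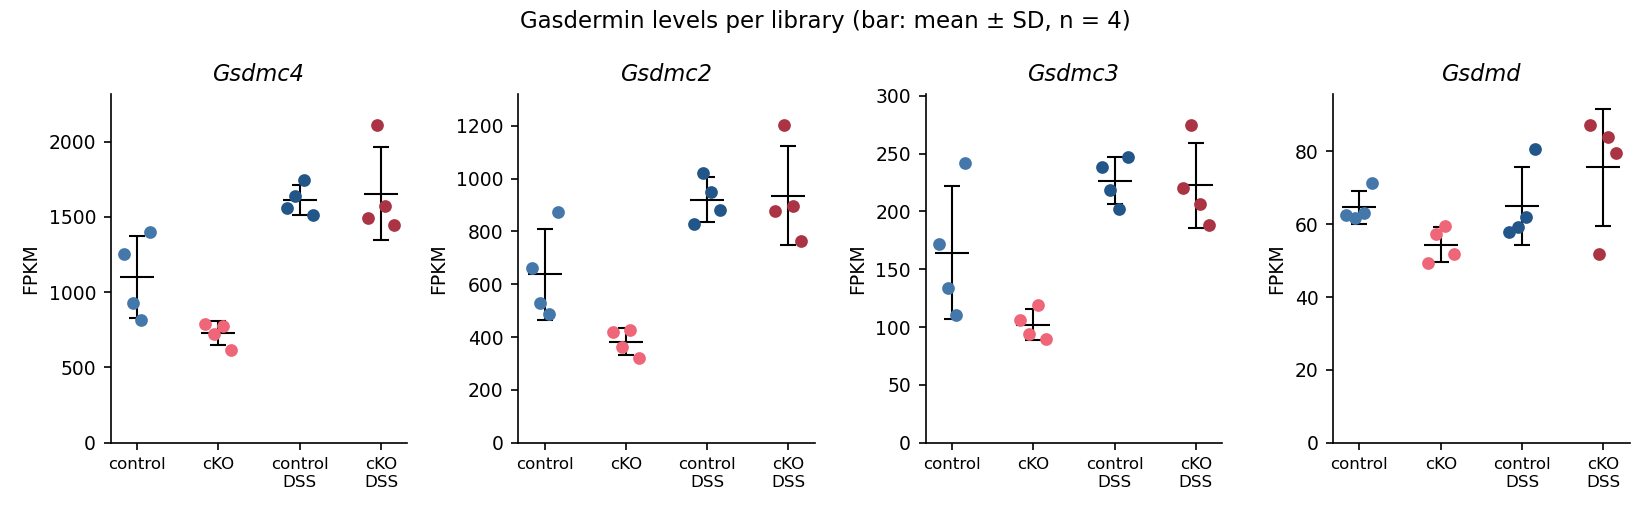
FPKM (vertical axes, starting at 0) of Gsdmc4, Gsdmc2, Gsdmc3 and Gsdmd in the 4 groups; points are single libraries and bars are the mean ± SD of 4. The cKO water libraries have the lowest mean in each panel, and all DSS libraries of Gsdmc4 (1445 to 2109) lie above all water libraries (617 to 1399).

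Gsdmc itself was barely detected. It was counted with 1 to 29 reads per library, against 17908 to 68798 for Gsdmc4, and stayed under 1 FPKM throughout. Control libraries on water held 0.306, 0.0974, 0.167 and 0.334 FPKM and cKO libraries 0.0817, 0.109, 0.0306 and 0.120 FPKM. After DSS the values were 0.330, 0.318, 0.316 and 0.458 FPKM in control and 0.813, 0.319, 0.0791 and 0.0525 FPKM in cKO libraries. With so few reads the counting error alone is wide (1 read in cKO 3 has an exact 95% Poisson interval of 0.0253 to 5.57, and 29 reads in cKO DSS 1 one of 19.4 to 41.6, which cover counting error only). Differences in Gsdmc between groups were not detectable at this depth: its groups overlapped in all 4 comparisons, with exact two-sided permutation p between 0.0857 and 0.771.

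The order of levels was the same in all 16 libraries for the abundant members. Gsdmc4 exceeded Gsdmc2 by 1.60 to 1.99 times, Gsdmc2 exceeded Gsdmc3 by 3.47 to 4.69 times, and Gsdmc3 exceeded Gsdmd by 1.64 to 5.29 times. The pseudogene Gsdmcl2 (48.9 to 216 FPKM) and Gsdmd (49.3 to 87.2 FPKM) were neighbours that were not separated, with Gsdmcl2 higher in 11 of 16 libraries. Below them came Gsdmcl-ps (2.21 to 12.4 FPKM) and Gsdme (0.881 to 1.36 FPKM), another pore-forming member of the family, which exceeded Gsdmc in every library. The skin gasdermin Gsdma averaged 0.0848 to 0.166 FPKM by group, the gasdermin-related gene Pjvk had 0 to 5 reads and Gsdmcl1 had 0 to 6, while Gsdma2 and Gsdma3 were listed at 0 in all libraries. Counting error was small for the abundant members, at most 0.747% of the level for Gsdmc4, 0.983% for Gsdmc2, 1.86% for Gsdmc3 and 2.42% for Gsdmd.

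Summed over Gsdmc, Gsdmc2, Gsdmc3 and Gsdmc4, the cluster lay between 1417 and 2513 FPKM in the control libraries on water and between 1028 and 1323 FPKM in the cKO ones. After DSS the sum lay between 2628 and 2892 FPKM (control) and between 2398 and 3586 FPKM (cKO), so that all but 1 DSS library (cKO DSS 4) lay above every water library, control 4 included. The cluster made up 0.224 to 0.745% of all reads of a library. The division among copies varied little: Gsdmc4 held 55.7 to 61.3% of the summed FPKM, Gsdmc2 30.8 to 35.5% and Gsdmc3 6.98 to 9.61%. Against Gsdmd, the sum was 22.5 to 35.3 times as high in control and 19.9 to 26.7 times as high in cKO libraries on water. After DSS it was 32.7 to 48.7 times as high in control libraries, 69.1 times in cKO DSS 2 and 29.8 to 31.9 times in the other 3 cKO libraries.

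Across the 16 libraries the 3 abundant copies rose and fell together, as a description that includes any reads they share. Pearson's r of log2(FPKM + 1) was 0.99 between Gsdmc4 and Gsdmc2, 0.97 between Gsdmc4 and Gsdmc3 and 0.97 between Gsdmc2 and Gsdmc3. After group means were taken out, the values were 0.95, 0.85 and 0.87. Gsdmd followed them less closely. Its r with Gsdmc4, Gsdmc2 and Gsdmc3 was 0.42, 0.45 and 0.48 across all libraries, and -0.31, -0.23 and -0.024 within groups.

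**Figure D2:**
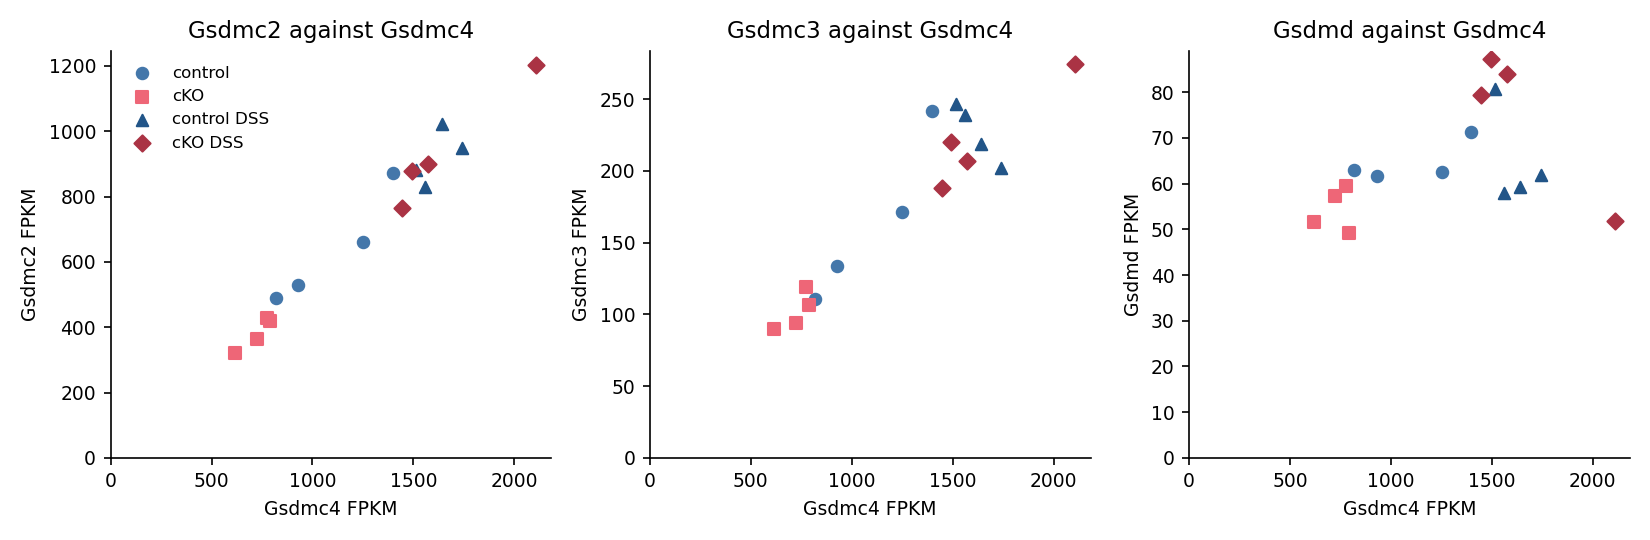
FPKM of Gsdmc2, Gsdmc3 and Gsdmd (vertical axes) against FPKM of Gsdmc4 (horizontal axes), with 1 point per library, coloured by group. Gsdmc2 and Gsdmc3 lie near a line through the origin, while the cKO DSS library with the highest Gsdmc4 (2109) has 51.9 FPKM of Gsdmd.

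Genotype was compared first on water. All 3 abundant Gsdmc genes were lower in cKO than in control libraries, but none passed the test after adjustment over all genes. Gsdmc4 averaged 1099 ± 271 FPKM in control and 727 ± 78.5 FPKM in cKO libraries (SD, n = 4 each). On the log2(FPKM + 1) scale this is a difference of -0.57 ± 0.17 (SE), with an adjusted p of 0.144 in limma. Gsdmc2 averaged 638 ± 172 and 383 ± 49.998 FPKM, a log2 difference of -0.71 ± 0.18 (adjusted p 0.124, limma). Gsdmc3 averaged 164 ± 57.3 and 102 ± 13.3 FPKM, a log2 difference of -0.63 ± 0.19 (adjusted p 0.154, limma). Gsdmd averaged 64.6 ± 4.43 and 54.4 ± 4.74 FPKM, a log2 difference of -0.25 ± 0.15 (adjusted p 0.374, limma).

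Read against all genes, 0 of the 4 tested members were called (adjusted p under 0.05) in limma voom on recovered reads. There 29 of 13255 genes were called. In limma 0 of the 4 were called, where 0.0905% of all genes were called. At an unadjusted p under 0.05 there were 3 of 4 members and 18.1% of all genes. Control and cKO values did not overlap, with cKO lower, for Gsdmc4, Gsdmc2 and Gsdmd, as for 7.65% of all genes. For these 3 genes the exact two-sided permutation p was 0.0286, the smallest that 4 against 4 libraries allow. The 95% interval of the log2 difference ran from -0.93 to -0.21 for Gsdmc4 and from -1.08 to -0.33 for Gsdmc2. Control 4 was the highest control library for all 4 tested members. Without it the difference was -0.44 for Gsdmc4, -0.54 for Gsdmc2 and -0.42 for Gsdmc3, again with none called. Summed markers of stem and cycling cells were 51.9 to 55.2 FPKM in control and 68.6 to 74.3 FPKM in cKO libraries, and those of absorptive colonocytes 2982 to 5075 and 4386 to 8599 FPKM. Their part in the gasdermin values was not tested. In bulk RNA, fewer cells of a type and less RNA per cell cannot be told apart.

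After DSS, the genotypes had near-equal Gsdmc levels. Gsdmc4 averaged 1614 ± 99.7 FPKM in control and 1655 ± 307 FPKM in cKO libraries (SD, n = 4 each), Gsdmc2 921 ± 83.7 and 936 ± 187 FPKM, and Gsdmc3 226 ± 20.2 and 222 ± 37.1 FPKM. The log2 differences were 0.02, 0.01 and -0.04, with 95% intervals of -0.34 to 0.38, -0.37 to 0.39 and -0.45 to 0.37. Differences inside these intervals are not excluded. The intervals are no limit of detection, since on water a difference of -0.71 for Gsdmc2 was not called. Gsdmd averaged 64.9 ± 10.7 and 75.6 ± 16.1 FPKM, a log2 difference of 0.20 ± 0.15 (SE), with an adjusted p of 0.472 in limma and an interval of -0.11 to 0.52. Of the 4 tested members, 0 were called in limma voom, where 598 of 13255 genes were called. In limma 0 of the 4 were called and 0 had an unadjusted p under 0.05, where 3.70% of all genes were called. The values of the genotypes overlapped for all 4, while 10.0% of all genes did not overlap.

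DSS in control mice went with higher Gsdmc4 and Gsdmc2. Gsdmc4 rose by 0.59 ± 0.17 (SE) on the log2 scale, from 1099 to 1614 FPKM, with an adjusted p of 0.0197 in limma and no overlap between the groups. Gsdmc2 rose by 0.56 ± 0.18, from 638 to 921 FPKM (adjusted p 0.0296, limma), although control 4 overlapped the DSS range. For Gsdmc3 the log2 difference was 0.52 ± 0.19 (adjusted p 0.0552, limma). Gsdmd averaged 64.6 and 64.9 FPKM, a log2 difference of -0.00 with a 95% interval of -0.32 to 0.31. With 2 of 4 members called higher, 15.0% of all genes were called higher in this comparison. Only Gsdmc4 was higher with no overlap, as were 15.5% of all genes. The mitochondrial share of reads was 7.66 to 11.3% in control and 5.56 to 7.34% in control DSS libraries, and its part in these differences was not tested.

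Calls of the Gsdmc genes in control mice moved with the processing. With the Y-linked level as a covariate the log2 difference was 0.40 for Gsdmc4 (adjusted p 0.207, limma) and 0.43 for Gsdmc2 (adjusted p 0.220, limma), and neither was called. A correction for GC content gave 0.40 and 0.42, also not called. Gsdmc3 was called without control 4 (0.72, adjusted p 0.00951 in limma). Gsdmc2 was not called without control 2 or 3 or without control DSS 2 or 4, nor Gsdmc4 without control 2 or 3.

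In cKO mice the DSS difference of the Gsdmc genes was above 2-fold. Gsdmc4 rose by 1.18 ± 0.17 (SE) on the log2 scale, from 727 to 1655 FPKM (adjusted p 0.000493, limma). Gsdmc2 rose by 1.28 ± 0.18, from 383 to 936 FPKM (adjusted p 0.000421, limma), and Gsdmc3 by 1.11 ± 0.19, from 102 to 222 FPKM (adjusted p 0.00177, limma). None of these 3 genes overlapped between water and DSS libraries, and the exact two-sided permutation p was 0.0286 for each, the smallest possible. Gsdmd averaged 54.4 ± 4.74 FPKM on water and 75.6 ± 16.1 FPKM after DSS (SD, n = 4 each), a log2 difference of 0.44 ± 0.15 (adjusted p 0.0562, limma), with cKO DSS 2 inside the water range. The mitochondrial share was 7.67 to 15.1% in cKO and 4.74 to 6.95% in cKO DSS libraries, and its part was not tested here either.

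In that comparison 3 of 4 members were called higher, against 8.07% of all genes, and 3 of 4 were higher without overlap, against 10.1% of all genes. Gsdmc2 and Gsdmc4 were called under all 30 alternatives. With the Y-linked level as a covariate the log2 difference of Gsdmc4 was 0.95 (adjusted p 0.0469, limma) and that of Gsdmc3 0.92 (adjusted p 0.0989, limma, not called), both under 2-fold, and that of Gsdmc2 was 1.11 (adjusted p 0.0369, limma). Leaving out cKO DSS 2 gave Gsdmd a log2 difference of 0.61 and an adjusted p of 0.00363 in limma. Both pseudogenes above the filter were called higher too, Gsdmcl2 by 0.87 (adjusted p 0.0434, limma) and Gsdmcl-ps by 1.47 (adjusted p 0.000892, limma), while Gsdmcl1 was not tested. In control mice their log2 differences with DSS were -0.25 for Gsdmcl2 (111 and 85.2 FPKM) and 0.12 for Gsdmcl-ps, neither called. The Gsdmcl2 mean on water includes control 4 at 216 FPKM. The other control libraries had 74.6 to 79.5 FPKM on water, and the control DSS libraries 60.4 to 105 FPKM. The counting is not stated to use strand. The pseudogenes are interleaved with the Gsdmc genes and do not overlap their deposited positions. Of 50-base windows of their transcripts, 98.0% of Gsdmcl2 and 64.4% of Gsdmcl-ps occurred in no other gene's transcripts. None of the rest occurred in Gsdmc, Gsdmc2, Gsdmc3 or Gsdmc4. Whether reads of the Gsdmc genes entered the pseudogene values was not tested.

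The DSS effect in cKO minus that in control was positive for all 4 tested members, but 0 were called in limma and 0 in limma voom. It was 0.59 for Gsdmc4 (adjusted p 0.165, limma), 0.71 for Gsdmc2 (adjusted p 0.136, limma), 0.59 for Gsdmc3 (adjusted p 0.207, limma) and 0.45 for Gsdmd (adjusted p 0.212, limma). In limma all 4 had an unadjusted p under 0.05, as had 23.2% of all genes, and 0.151% of all genes were called. The larger DSS rise in cKO is therefore not shown to differ from that in control. Gsdmd was called without cKO DSS 2 (0.62, adjusted p 0.0307 in limma).

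**Figure D3:**
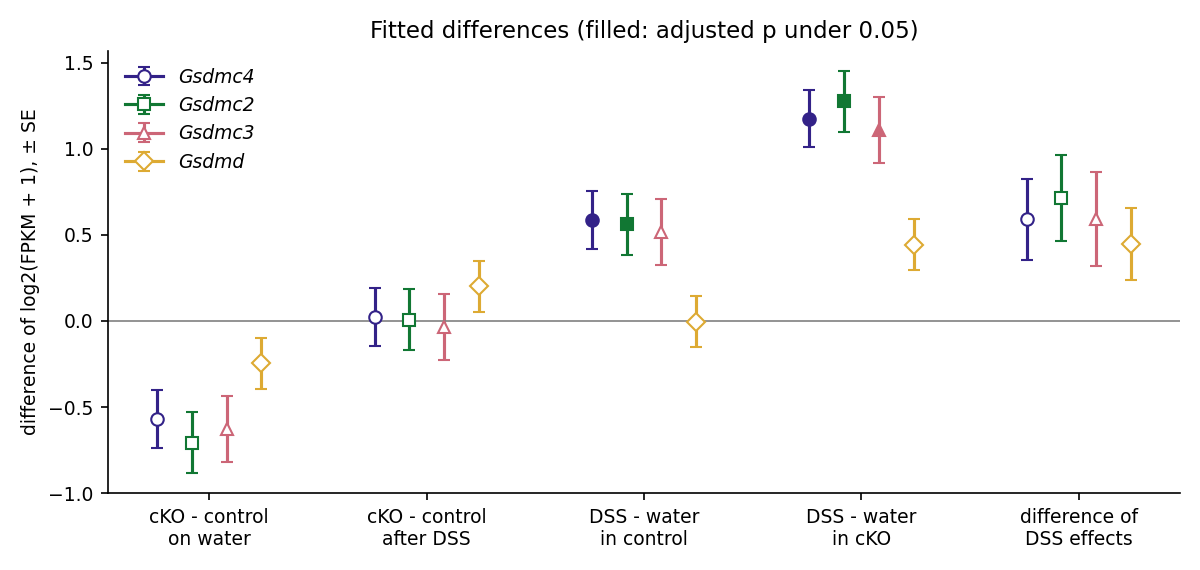
Fitted differences of log2(FPKM + 1) with their SE (vertical axis) for Gsdmc4, Gsdmc2, Gsdmc3 and Gsdmd in the 5 comparisons; filled symbols had an adjusted p under 0.05. Filled symbols stand only in the DSS comparisons, from 0.56 to 1.28, and the genotype difference after DSS is near 0 for the 3 Gsdmc genes.

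Some markers of other cells differed between water and DSS libraries as well. Fibroblast and endothelial markers summed to 2.95 to 4.51 FPKM in control and 10.7 to 13.1 FPKM in control DSS libraries, and to 4.16 to 5.67 and 7.37 to 9.12 FPKM in the cKO groups. Macrophage markers summed to 4.28 to 6.66 and 7.31 to 11.1 FPKM in the control groups, and to 5.40 to 7.29 and 7.71 to 12.1 FPKM in the cKO groups. Lymphocyte markers overlapped, at 3.71 to 5.74 and 4.27 to 6.38 FPKM in the control groups and 2.43 to 6.71 and 4.43 to 5.49 FPKM in the cKO groups. Neutrophil markers summed to 46.9 to 58.6 FPKM in control and 31.6 to 39.4 FPKM in control DSS libraries, and to 38.4 to 63.3 and 39.9 to 76.7 FPKM in the cKO groups. Nearly all of that sum was Ly6g, the only 1 of the 6 above the filter, which fell by 0.59 in control (adjusted p 0.0222, limma, not called without control 2 or 3 or control DSS 1 or 2), while S100a9, Csf3r and S100a8 averaged at most 0.102 FPKM in any group. Goblet cell markers, which belong to the epithelium, overlapped in control but not in cKO mice: they summed to 1551 to 4310 FPKM in control, 2658 to 4415 in control DSS, 1572 to 3218 in cKO and 3425 to 4949 FPKM in cKO DSS libraries. Of 5 stem and cycling markers, 2 fell with DSS in control and 5 in cKO mice. In the fit with the Y-linked covariate 2 fell in each. The part of these shifts in the gasdermin values was not tested.

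The pathway around the gasdermins was described by 6 lists with 41 genes above the filter. In control mice 21 of the 41 rose and 2 fell with DSS, where 15.0% of all genes were called higher and 13.5% lower. In cKO mice 14 rose and 0 fell, where 8.07% of all genes were called higher and 6.64% lower (of the 41, 21 higher and 0 lower at an unadjusted p under 0.05 in limma, 14 higher and 0 lower called in limma voom). With the Y-linked level as a covariate, 9 were called higher and 0 lower in control (16 and 1 at an unadjusted p under 0.05) and 5 higher and 0 lower in cKO (13 and 0). Between genotypes on water, 0 of the 41 were called in limma or limma voom, with 9 at an unadjusted p under 0.05 in each, where 18.1% of all genes were under it in limma.

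Among 7 proteases that cut gasdermins, 5 rose with DSS in control and 4 in cKO mice, with list medians of 0.49 and 0.34 on the log2 scale where the median of all genes was -0.01 in both. Without control DSS 4 the control count was 3. Of all genes, 15.0% were called higher in control and 8.07% in cKO mice. Casp8, the initiator caspase that can cut gasdermins, rose by 0.42 in control, from 37.3 to 50.2 FPKM (adjusted p 0.00568, limma), and by 0.58 in cKO, from 40.3 to 61.0 FPKM. The granule protease gene Gzmb rose by 0.72 in control and 0.94 in cKO, from 3.03 and 3.56 FPKM. Casp4, the mouse caspase-11 gene of the noncanonical inflammasome, rose by 0.53 in control (adjusted p 0.0162, limma), and its log2 difference in cKO was 0.31 (adjusted p 0.180, limma). Casp1, the canonical inflammasome caspase, had a genotype difference after DSS of -0.22 that was not called (adjusted p 0.249, limma).

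Of 11 inflammasome sensors and adaptors, 5 rose with DSS in control and 1 in cKO mice (list medians 0.28 and 0.12), the latter a share close to the 8.07% of all genes. The control count was 3 without control 2, control 3 or control DSS 4, and the cKO count 2 without cKO DSS 3 or cKO DSS 4. Nlrp6, a sensor known from colonic epithelium, rose in both, by 0.59 in control (74.3 to 112 FPKM, adjusted p 0.000331, limma) and by 0.53 in cKO (64.8 to 94.3 FPKM, adjusted p 0.000666, limma). The NLRP3 partner Nek7 rose by 0.69, the NAIP family sensor gene Naip1 by 0.39 and the adaptor Pycard (ASC) by 0.65 in control. In cKO those 3 had log2 differences of 0.31, 0.23 and 0.16 and were not called. The difference between the genotypes' DSS effects was called for 0 of the 41 genes of the 6 lists in limma and in limma voom, with 4 and 5 at an unadjusted p under 0.05.

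All 4 kept genes of the interleukin-1 family rose with DSS in control and 3 of them in cKO mice. List medians were 0.62 and 0.85, and 15.0 and 8.07% of all genes were called higher. The control count was 2 without control 2 or 3 or without control DSS 1, 2 or 4. Il18, an epithelial cytokine released through gasdermin pores, rose by 0.57 in control, from 59.6 to 86.8 FPKM (adjusted p 0.0396, limma), and had a log2 difference of 0.46 in cKO (adjusted p 0.129, limma). Il18bp, its secreted inhibitor, rose by 1.26 in control and 0.78 in cKO. Il1b rose by 0.63 and 0.91 but from averages of 0.303 and 0.247 FPKM. These lie under the 1 FPKM of the filter, which Il1b passed mainly through DSS libraries. Its rise is therefore tied to its being kept, and its place in the counts and medians is no separate support. Il1rn, the interleukin-1 receptor antagonist, rose by 0.60 and 0.94, and after DSS it was higher in cKO than in control by 0.65 ± 0.13 (SE), at 25.8 against 16.3 FPKM (adjusted p 0.0161, limma). Without cKO DSS 3 and 4, or without control 4 and control DSS 2, no gene of the 6 lists was called between genotypes after DSS in limma (8 at an unadjusted p under 0.05 in each). Leaving out control DSS 2 alone, or fitting only the 8 DSS libraries, also gave no call among them.

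Of 9 membrane rupture and repair genes, 1 rose and 2 fell with DSS in control, and 1 rose and 0 fell in cKO mice, shares close to those of all genes (15.0 and 13.5% in control, 8.07% higher in cKO). In control, 1 fell without control 2, 3 or 4 or control DSS 1, 2 or 4, and 2 rose without control 1. In cKO, 0 rose without cKO 1, cKO 4 or cKO DSS 2 (1 at an unadjusted p under 0.05 in limma in each), and 2 without cKO DSS 1. Ninj1, whose protein ruptures the plasma membrane late in lytic death, fell by 0.62 on the log2 scale in control, from 14.3 to 8.99 FPKM (adjusted p 0.0373, limma), and had a log2 difference of -0.14 in cKO (adjusted p 0.704, limma). The ESCRT-III genes, whose products remove damaged membrane, split: Chmp2b rose by 0.50 in control and 0.37 in cKO, while Chmp2a fell by 0.60 in control. Without control 4 and control DSS 2, 0 of the 9 were called lower with DSS in control in limma (1 at an unadjusted p under 0.05). Chmp3 was lower in cKO than in control after DSS by 0.26 (40.9 against 49.3 FPKM, adjusted p 0.0262, limma). It was not called without control DSS 1, 2 or 4, without cKO DSS 3 or 4, or in a fit of only the 8 DSS libraries.

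Of 6 transcription factors linked to Gsdmd, 3 rose with DSS in control and 2 in cKO mice. Of all genes, 15.0 and 8.07% were called higher. Without cKO 1, cKO 2 or cKO DSS 1 the cKO count was 1. Gsdmd itself was called in neither genotype. In cKO, however, its log2 difference was 0.44 (adjusted p 0.0562, limma), and 8 of 30 alternatives called it. Irf1, an interferon-induced factor, rose by 0.54 in control and 0.67 in cKO. Irf2, a factor known to drive Gsdmd transcription, rose by 0.40 in control (10.1 to 13.6 FPKM, adjusted p 0.00926, limma) with a log2 difference of 0.13 in cKO (adjusted p 0.392, limma).

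In the type 2 cytokine arm, 3 of 4 kept genes rose with DSS in each genotype, against 15.0% of all genes in control and 8.07% in cKO. Il13ra1, a receptor chain for interleukin-13, rose by 0.89 in control (26.4 to 49.6 FPKM) and 0.66 in cKO. Il4ra, the chain shared by the interleukin-4 and interleukin-13 receptors, rose by 0.55 in control (5.32 to 8.19 FPKM) and 1.05 in cKO (4.62 to 10.7 FPKM, adjusted p 0.000120, limma). Retnlb, a goblet cell peptide gene, rose by 1.19 in control (908 to 1869 FPKM) and 1.37 in cKO (397 to 1039 FPKM). Stat6, the transducer of both cytokines, stood at 19.99 and 21.4 FPKM in control and was not called. The epithelial alarmins Il25 and Tslp averaged at most 0.132 FPKM in any group, and the decoy receptor gene Il13ra2 was listed at 0 in all groups.

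**Figure D4:**
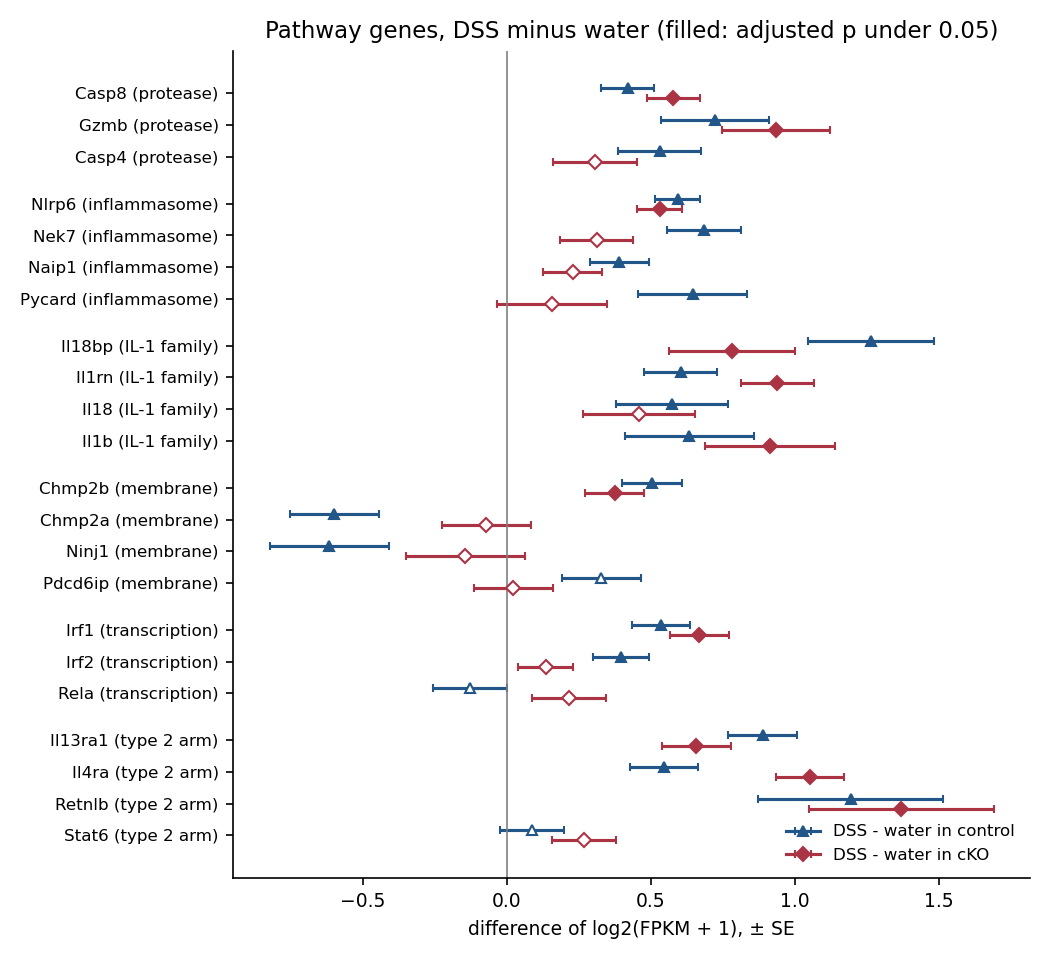
Differences of log2(FPKM + 1) between DSS and water with their SE (horizontal axis) for 22 genes of the 6 lists, in control (triangles) and cKO (diamonds) libraries; filled symbols had an adjusted p under 0.05. The genes were chosen mainly for a small p for DSS in control, so the picture does not show how common such differences are; Chmp2a (-0.60) and Ninj1 (-0.62) in control are the filled symbols left of 0.

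The genes whose levels followed the Gsdmc genes most closely over the 16 libraries were largely shared among the 3. By Pearson's r of log2(FPKM + 1), Glipr2, a Golgi-associated protein gene, came first for Gsdmc4 (0.92) and Gsdmc3 (0.94), and Tbc1d20, a Rab GTPase-activating protein gene, came first for Gsdmc2 (0.93). Nfil3, a transcriptional repressor gene tied to the circadian clock, and the transporter gene Slc17a4 were among the 5 closest for all 3, with Nfil3 at 0.92, 0.90 and 0.90. The RhoA exchange factor gene Net1 was among the 5 for Gsdmc2, and Ppme1 among those for Gsdmc3. Glipr2 averaged 2.75 FPKM in control, 1.74 in cKO, 5.59 in control DSS and 5.02 in cKO DSS libraries. Its lowest group was cKO on water, as for the Gsdmc genes. Because Glipr2 was picked for following them over these libraries, the shared order is no separate result. After group means were taken out, its r was 0.60 with Gsdmc4, 0.59 with Gsdmc2 and 0.81 with Gsdmc3. Gsdmd had other neighbours: Itm2c (0.89), R3hdm4, Tnfrsf12a, which encodes the receptor of the cytokine TWEAK, Cdc42se1 and Metrnl. Tnfrsf12a averaged 2.62 FPKM in control, 1.498 in cKO, 3.36 in control DSS and 5.65 in cKO DSS libraries. These correlations describe 16 libraries that also share group, depth and composition.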

How the data were processed

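Colonic epithelial RNA was sequenced in 16 libraries, grouped and numbered by their labels. Per the labels' protocols, low-quality reads and those holding adapters or undetermined bases had been removed. The submitters' processing notes name mm10, featureCounts (1.5.0-p3) and DESeq2 (1.20.0) as what the authors used; aligner, annotation release and strand use: not given in the sources used here. The deposited values are FPKM. In each library, FPKM times gene length divided by the worth of 1 read was whole for every value (0 were off by more than 0.05), so reads and depth could be recovered.

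The filter kept genes that reached 1 FPKM in 4 or more libraries. Group means were fitted to log2(FPKM + 1) of all 16 libraries with limma 3.58.1 (lmFit, contrasts.fit, eBayes with trend) in R 4.3.3. This scale understates changes of low genes. Two-sided p-values were adjusted by the Benjamini-Hochberg method over all kept genes within each of 5 comparisons, and genes under 0.05 were called. The script was tested on simulated data. Members were also tested by 20 exact permutation tests (4 against 4; scipy 1.17.1), of which 7 had a p under 0.05, all at 0.0286, and 0 after adjustment over the 20. No 2 libraries of a group agreed within counting noise.

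The members and gene lists were chosen with earlier results of these data known. Named genes are the family; per list, up to 4 kept genes with the smallest p for DSS in control and up to 2 for genotype after DSS, of which a few are not reported here; the 5 kept coding genes most correlated with each tested member; and Rictor. Gsdma2, Il13ra2 and other genes below the filter, and single markers, were named after their values were seen. Coding sequences and transcripts were from GENCODE M21 (aligned with MAFFT 7.526) and the promoter from RefSeq. Alternatives were no filter, a filter of 5 FPKM, a pseudocount of 0.1, other scalings, weights, a replicate block, 8 samples per fit, limma voom, corrections for GC content (known for 97.1% of kept genes) and length, the Y-linked covariate and left-out libraries.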

Additional observations from a re-analysis of the deposited data

Results flagged for a closer look

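In 3 of 32 groups of 4 libraries checked (8 gasdermin genes in 4 groups), the highest library lay so far from the others that its gap to the nearest, divided by the range of the group, passed Dixon's 95% critical value for 4 samples; chance alone does this in about 1 in 20 groups. In control 4 on water, Gsdmd stood at 71.2 FPKM, with a gap of 0.847 of the range. The pseudogene Gsdmcl2 stood at 216 FPKM in the same library, where the other 3 control libraries had 74.6 to 79.5 FPKM, with a gap of 0.965. Gsdmc stood at 0.458 FPKM in control DSS 4, with a gap of 0.907, on 16 reads.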

How the results depend on the processing

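Over 30 alternatives (29 for the interaction, which cannot be fitted on 8 samples), Gsdmc2, Gsdmc3 and Gsdmc4 were lower in cKO on water and not called in any, and Gsdmc2 and Gsdmc4 were called higher with DSS in cKO in all. For DSS in control, Gsdmc2 was not called with GC correction (0.42), the Y-linked covariate (0.43), no filter (0.56) or 8 samples (0.56), nor Gsdmc4 with GC correction (0.40), the covariate (0.40) or no filter (0.59). Gsdmc3 was called with the 5 FPKM filter (0.52), length correction (0.60), voom (0.52), quantile normalization (0.57), weights (0.69) and without control 4 and control DSS 2 (0.74). Gsdmd had the opposite sign with GC correction (0.17), the covariate (0.022), length correction (0.074), the median shift (0.0052) and without control 4 and control DSS 2 (0.082). For DSS in cKO, Gsdmc3 was not called with the covariate (0.92), and Gsdmd was called with GC correction (0.43), the 5 FPKM filter (0.44), length correction (0.45), voom (0.45), weights (0.56) and the median shift (0.47). For genotype after DSS, signs turned for Gsdmc2 with quantile normalization (-0.049) and weights (-0.10), for Gsdmc4 with weights (-0.062), and for Gsdmc3 with GC correction (0.036) and without cKO DSS 3 and 4 (0.12), none called, while weights called Gsdmd (0.37) there and in the interaction (0.61). The cause was not tested in any of these cases.

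Leaving out 1 library at a time gave log2 differences for genotype after DSS of -0.12 to 0.098 for Gsdmc2, -0.14 to 0.040 for Gsdmc3, -0.10 to 0.081 for Gsdmc4 and 0.13 to 0.37 for Gsdmd. For DSS in control they were 0.45 to 0.72 for Gsdmc2, 0.35 to 0.72 for Gsdmc3, 0.46 to 0.71 for Gsdmc4 and -0.11 to 0.046 for Gsdmd. For DSS in cKO they were 1.005 to 1.19 for Gsdmc3 and 0.37 to 0.61 for Gsdmd, called without control DSS 4 or cKO DSS 2, and for the interaction 0.37 to 0.62 for Gsdmd. Gsdmc3 in control was also called without cKO DSS 2.

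Counts of all called genes moved more. For genotype on water 12 were called; voom gave 29, no filter 2, 8 samples 6, quantile normalization 20, weights 267, the median shift 20, leaving out control 4 and control DSS 2 gave 8, and single libraries 2 to 111 (the highest without cKO DSS 2). For genotype after DSS 491 were called, with 209 (no filter), 96 (8 samples), 3485 (weights), 117 (without control 4 and control DSS 2), 33 (without cKO DSS 3 and 4) and 78 to 886 (single libraries, lowest without control DSS 2). DSS in control had 3778, with 863 (covariate), 1452 (without control 4 and control DSS 2) and 2240 to 4258 (single libraries, lowest without control DSS 1). DSS in cKO had 1950, with 299 (covariate), 3060 (weights) and 1305 to 2153. The interaction had 20, with 9 (GC), 7 (covariate), 46 (5 FPKM filter), 68 (voom), 4 (no filter), 11 (quantile), 3728 (weights), 36 (median shift), 0 without control 4 and control DSS 2 (1993 at an unadjusted p under 0.05 in limma), 0 without cKO DSS 3 and 4 (1288) and 0 to 1240 for single libraries (0 without control DSS 2, control DSS 4 or cKO DSS 4, with 2397, 2609 and 2216 at an unadjusted p under 0.05; 1240 without cKO DSS 2). Outside the replicate block, the fits did not pair samples by replicate number. Of 24 same-number pairs, 6 had deviations correlated above 0.1 (-0.20 to 0.30). Between control and cKO DSS libraries 3 of 4 such pairs did (0.092 to 0.23). Some pairs of different number also passed 0.1. Such pairs ranged from -0.25 (control DSS 3 with cKO DSS 2) to 0.28 (control DSS 3 with cKO DSS 4). The replicate block gave 2 calls for genotype on water and 13 for the interaction, and changed no call of a member. Depth limits Gsdmc alone among the members, and shared sequence limits the single Gsdmc2, Gsdmc3 and Gsdmc4 values.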
